A study of Mus musculus with 48 samples.

Results

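The 6 genes Alpl, Fut9, Cd9, Cd24a, Kit and Pecam1 are known for surface markers of mouse pluripotent cells. Their RNA was followed through reprogramming of fibroblasts by 2 polycistronic cassettes. They were picked by name from the 24264 transcripts of the count table, as known markers of these cells. In these data Cd24a RNA was lower in embryonic stem cells than in fibroblasts, and the Cd9 difference did not pass the threshold (below). Alpl encodes tissue-nonspecific alkaline phosphatase, the enzyme behind the classical stain of pluripotent colonies. Fut9 encodes a fucosyltransferase that builds the Lewis X sugar, known on mouse pluripotent cells as SSEA1. Cd9 encodes a tetraspanin, Cd24a a small glycoprotein held by a lipid anchor, Kit the receptor tyrosine kinase for stem cell factor, and Pecam1 the adhesion molecule CD31.

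RNA of 48 libraries in 20 groups was sequenced with STRT, a method that counts the 5′ ends of transcripts. The study compared reprogramming driven by a c-Myc, Klf4, Oct4, Sox2 cassette (MKOS) with that driven by an Oct4, Klf4, c-Myc, Sox2 cassette (OKMS). The cassettes differ in more than order. Per the paper, OKMS holds a short Klf4 without some N-terminal amino acids of the long form in MKOS. Cassettes with the short form yielded less KLF4 protein. The paper names this variation as a dominant factor behind the differences between cassettes. The parts of order and Klf4 form in the results below were not tested. Each cassette was doxycycline-inducible and had been targeted, together with a CAG promoter-driven rtTA, to an intron of Sp3 in TNG embryonic stem cells (ESCs). TNG cells carry a gene-targeted Nanog-GFP reporter and are Nanog G/+ per the paper, so only the other Nanog allele is intact. MKOS and OKMS mouse embryonic fibroblasts (MEFs) came from chimeric embryos made with the cassette-carrying ESCs. They were thus a mixture of transgenic and host fibroblasts, and for reprogramming they were diluted further with wild-type (WT) MEFs.

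The 8 sorted groups had 3 libraries each and had all received doxycycline and vitamin C (VitC). The design text places them at day 10 of reprogramming, whereas the growth protocol gives 10 or 15 days. All came from CD44-low cells, and the prefix 2 marks ICAM1-low, the prefix 3 ICAM1-high, NG- and NG+ the absence and presence of Nanog-GFP, and E-CAD the E-cadherin sort. MKOS cells were sorted as E-CAD+ 2NG-, 3NG- and 3NG+, and OKMS cells as the same 3 populations plus E-CAD- 2NG- and 3NG- cells. The other 12 groups had 2 libraries each, namely WT, MKOS and OKMS MEFs, MKOS and OKMS induced pluripotent stem cells (iPSCs) grown without doxycycline (-dox) or in 2i, TNG, TNG MKOS and TNG OKMS ESCs, the reference ESC line E14, and the iPSC line D6, which is 1 clone with a single piggyBac integration of MKOS. TNG ESCs carry no cassette, and the labels do not say for how long the iPSCs had been kept in 2i. Nor do the sample titles say whether the 2i cells were without doxycycline or were the same lines as the -dox cells.

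Surface markers of this kind are used to follow a fibroblast as it loses its mesenchymal identity, takes on epithelial features and then reaches pluripotency. Alkaline phosphatase and SSEA1 are known to appear before the endogenous pluripotency network is active, whereas CD31 is known as a marker of late reprogramming and of naive pluripotent cells. KIT and its ligand, encoded by Kitl, are best known from germ cells, blood progenitors, mast cells and melanocytes. CD9 associates with integrins and with other tetraspanins, and CD24 is widespread on immature epithelial, neural and blood cells.

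In GRCm38, Alpl lies on the minus strand of chromosome 4 (chr4:137741731-137796384), Fut9 on the minus strand of the same chromosome (chr4:25609333-25800003), Cd9 on the minus strand of chromosome 6 (chr6:125460266-125494760), Cd24a on the plus strand of chromosome 10 (chr10:43579169-43584265), Kit on the plus strand of chromosome 5 (chr5:75574987-75656722) and Pecam1 on the minus strand of chromosome 11 (chr11:106654213-106715281). Because STRT reads start at the transcript's 5′ end, the sequence just before that end is shown for 3 of the 6 members, those with a window in the RefSeq table used here (GRCm38.p6). Alpl and Kit had the most similar patterns among the members across the 20 groups, and Cd9 had a different one (below). The windows hold the 250 bases before the annotated start, 5′ to 3′ on the gene's own strand, and the capitals mark each match to the GC box GGGCGG, the site read by SP and KLF family factors.
Alpl (chr4:137796385-137796634, minus strand): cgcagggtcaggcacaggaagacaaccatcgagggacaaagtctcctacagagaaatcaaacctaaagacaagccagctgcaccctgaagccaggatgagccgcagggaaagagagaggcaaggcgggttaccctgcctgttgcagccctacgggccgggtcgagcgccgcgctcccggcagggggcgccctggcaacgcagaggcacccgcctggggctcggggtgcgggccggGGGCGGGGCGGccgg
Cd9 (chr6:125494761-125495010, minus strand): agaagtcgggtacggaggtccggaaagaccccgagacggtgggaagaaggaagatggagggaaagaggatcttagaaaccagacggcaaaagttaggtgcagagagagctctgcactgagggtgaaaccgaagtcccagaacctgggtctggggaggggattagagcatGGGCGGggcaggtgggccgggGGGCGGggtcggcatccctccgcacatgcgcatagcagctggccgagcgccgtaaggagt
Kit (chr5:75574737-75574986, plus strand): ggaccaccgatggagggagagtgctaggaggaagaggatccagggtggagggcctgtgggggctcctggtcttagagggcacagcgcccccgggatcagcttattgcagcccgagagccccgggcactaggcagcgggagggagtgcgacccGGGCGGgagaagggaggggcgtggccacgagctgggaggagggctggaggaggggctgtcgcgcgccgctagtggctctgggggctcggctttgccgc
The Alpl window held 2 overlapping matches at its end, the Cd9 window 2 separate matches and the Kit window 1, searched on both strands (GGGCGG or CCGCCC). Of all 32851 promoter windows of the same length, 32.7% held at least 1 match. None of these 3 windows held TATAAA (12.4% of all windows), CCAAT (33.8%) or the octamer ATTTGCAT (1.60%) on either strand. Alpl has another annotated start inside the gene (its window is chr4:137766476-137766725), with no GGGCGG and 1 TATAAA match, and the deposited counts do not separate the 2 starts. These matches describe letters in the windows and not binding.

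Between 1429717 and 14174725 reads per library fell on transcripts, so that the limit set by a count of 0, taken as 3 reads, lay between 0.212 and 2.10 CPM. This limit and all counting intervals below cover counting error only. CPM is the number of reads of a gene in 1000000 reads on transcripts of the same library. All 6 members passed the filter on low counts, among 15630 genes tested. A gene is called here when its p from edgeR's quasi-likelihood test, adjusted over these 15630 genes by the Benjamini-Hochberg method, was at most 0.05. Log2 fold changes are from that fit. No label says that replicates came from separate cultures, so p-values measure the spread between these libraries, which may be technical. In bulk RNA, fewer expressing cells and less RNA per cell cannot be told apart. Of the reads on Cd24a, 91.0% had a unique position in the genome, against 95.2% for Cd9 and at least 99.9% for the other 4 members, so the Cd24a values are the least certain where near-identical copies share reads. The sorts were visible in Cdh1, which codes for E-cadherin, at 4.24 to 51.5 CPM in the 6 E-CAD- libraries and at 62.6 to 182 CPM in the 18 E-CAD+ libraries. In OKMS, replicate 3 of both E-CAD+ NG- groups stood apart from the other libraries, with Cd44 at 12.5 and 9.18 CPM where the other 4 libraries of these groups had 36.8 to 135 CPM.

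**Figure D1:**
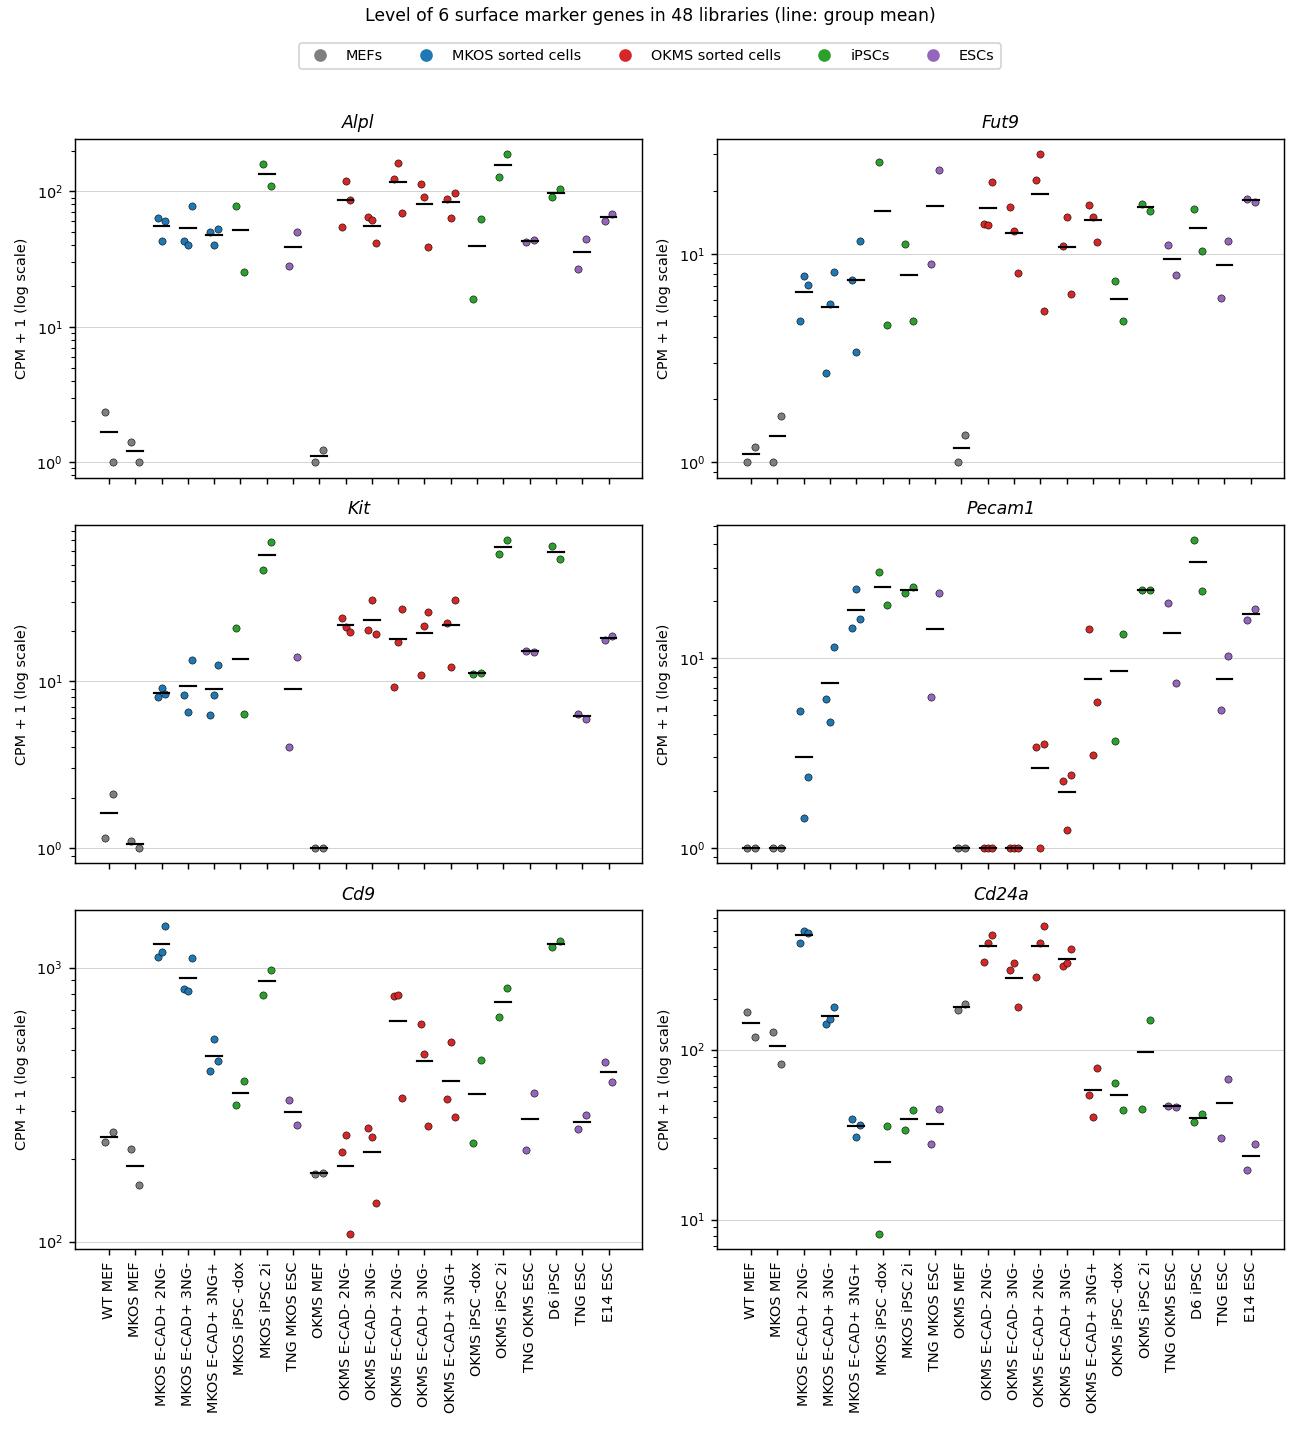
Level of each member in each of the 48 libraries, in CPM on a log axis after adding 1, by group. Points are libraries, coloured by kind of cell, and lines are group means. MEF libraries lie at the bottom for Alpl, Fut9, Kit and Pecam1, between 0 and 1.36 CPM, and at 81.1 to 251 CPM for Cd9 and Cd24a.

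MEFs had little or no Alpl, Fut9, Kit or Pecam1 RNA, while Cd9 and Cd24a were already present. In MKOS 2NG- cells all 6 members were higher than in MKOS MEFs, in OKMS E-CAD+ 2NG- cells all 6 were higher than in OKMS MEFs, and in OKMS E-CAD- 2NG- cells 4 of 6 were. The 2 not called in E-CAD- cells were Cd9 and Pecam1, and Pecam1 had no read in either of these groups. These 3 comparisons called 27%, 21.8% (E-CAD-) and 29.2% (OKMS E-CAD+) of all genes tested. The 2 OKMS comparisons share their MEF libraries.

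Alpl was near the detection limit in MEFs. The MKOS MEF libraries had 0.409 and 0 CPM, the OKMS MEF libraries 0 and 0.229 CPM, and the WT MEF libraries 1.36 and 0 CPM. Every sorted library was far above these values. The MKOS 2NG- libraries had 62.1, 42.1 and 59.1 CPM, a log2 fold change of 7.49 (SE 0.81, adjusted p = 3.94e-09). The OKMS E-CAD- 2NG- libraries had 53.7, 119 and 84.8 CPM, and the OKMS E-CAD+ 2NG- libraries 123, 160 and 68.7 CPM. With only 2 Alpl reads in both OKMS MEF libraries together, the pooled CPM ratio was 567 in E-CAD- cells (95% counting interval 157 to 4689) and 668 in E-CAD+ cells (185 to 5523), and both differences were called (adjusted p = 6.2e-10 and 1e-10). E-CAD- and E-CAD+ libraries overlapped.

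Fut9, the fucosyltransferase of SSEA1, showed the same absence in MEFs. The 6 MEF libraries had between 0 and 0.665 CPM. The MKOS 2NG- libraries had 3.77, 6.79 and 6.1 CPM, the OKMS E-CAD- 2NG- libraries 12.9, 12.7 and 21 CPM, and the OKMS E-CAD+ 2NG- libraries 21.5, 29 and 4.3 CPM. No 2NG- library overlapped with its MEFs. The pooled ratio to the MEFs of the same cassette was 25.4 (8.51 to 125), 76.9 (26 to 376) and 56.3 (19.1 to 275), with adjusted p of 0.00177, 4.87e-05 and 1.56e-05. The MKOS call was lost when MKOS MEF replicate 1 was left out (adjusted p = 0.0849, within a range of 2.98e-05 to 0.0849 over all settings). Fut4, the other fucosyltransferase able to make Lewis X, reached at most 2.78 CPM in any library and was at 0 in 34 of 48.

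Kit followed Alpl. The OKMS MEF libraries held no Kit read, the MKOS MEF libraries 1 read, and the WT MEF libraries 0.151 and 1.1 CPM. The MKOS 2NG- libraries had 7.04, 8.12 and 7.32 CPM, which is a pooled ratio of 106 (18.8 to 4215, adjusted p = 5.19e-06). The OKMS E-CAD- 2NG- libraries had 23, 20.3 and 18.6 CPM and the OKMS E-CAD+ 2NG- libraries 8.18, 16.1 and 26.1 CPM, at least 45.8-fold and 37.3-fold higher than the OKMS MEFs at their limit of 3 reads per library (adjusted p = 5.48e-08 and 3.3e-08). Kit RNA was thus present in all 24 sorted libraries, from 5.26 to 29.6 CPM. RNA of Kitl, the gene of the ligand, went the other way, from 23.9 to 60.7 CPM in the 6 MEF libraries to at most 19.6 CPM in sorted libraries. Against the MEFs of the same cassette, the Kitl difference was called in OKMS E-CAD- 2NG- cells (log2 fold change -2.48, SE 0.85, adjusted p = 0.0301) and OKMS E-CAD+ 2NG- cells (-2.34, SE 0.83, adjusted p = 0.0308), whereas in MKOS 2NG- cells it was -1.97 (SE 0.82, adjusted p = 0.0702).

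Pecam1 was the member most restricted in its occurrence, with 0 reads in all 6 MEF libraries. The MKOS 2NG- libraries had 4.28, 0.443 and 1.35 CPM, at least 4.17-fold above the MEF limit on average (adjusted p = 0.00433). The OKMS E-CAD+ 2NG- libraries had 2.39, 0 and 2.54 CPM, at least 3.65-fold above it (adjusted p = 0.00397), and 1 of these 3 libraries overlapped with the MEFs at 0. The OKMS E-CAD- 2NG- libraries all had 0 reads, as did the E-CAD- 3NG- libraries, with limits of 0.489 to 1.05 CPM. The calls rest on few reads. The MKOS call was lost without MKOS MEF replicate 1 (adjusted p = 0.0784) and the OKMS E-CAD+ call without OKMS MEF replicate 2 (0.0787). The latter was also lost when the 2 groups were fitted alone (0.0722). Over all settings, the adjusted p ranged from 5.71e-05 to 0.0784 for MKOS and from 5.44e-05 to 0.0787 for OKMS.

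Cd9 and Cd24a were already expressed in MEFs and rose less. Cd9 stood at 216 and 160 CPM in MKOS MEFs and at 1091, 1137 and 1422 CPM in MKOS 2NG- cells, a log2 fold change of 2.64 (SE 0.39, adjusted p = 1.59e-06). In OKMS it stood at 175 and 178 CPM in MEFs and at 789, 796 and 333 CPM in E-CAD+ 2NG- cells, a log2 fold change of 1.94 (SE 0.38, adjusted p = 0.000101). Neither pair of groups overlapped. The OKMS E-CAD- 2NG- libraries, with 212, 244 and 106 CPM, lay on both sides of the MEFs (log2 fold change 0.06, SE 0.35, 95% interval -0.65 to 0.77, adjusted p = 0.973).

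Cd24a stood at 126 and 81.1 CPM in MKOS MEFs and at 423, 497 and 489 CPM in MKOS 2NG- cells (log2 fold change 2.12, SE 0.44, adjusted p = 0.000303). In OKMS it rose from 170 and 186 CPM in MEFs to 328, 427 and 473 CPM in E-CAD- 2NG- cells (1.16, SE 0.42, adjusted p = 0.0444) and to 267, 422 and 536 CPM in E-CAD+ 2NG- cells (1.32, SE 0.43, adjusted p = 0.0169). All 2NG- libraries were above all MEF libraries of their cassette. The OKMS calls for Cd24a were nevertheless close to the threshold. The E-CAD- call was lost without any 1 of the 5 libraries, namely OKMS E-CAD- 2NG- replicate 1, 2 or 3 or OKMS MEF replicate 1 or 2 (adjusted p = 0.0502 to 0.223), and with DESeq2's size factors in edgeR (0.0583). The E-CAD+ call was lost without OKMS E-CAD+ 2NG- replicate 3, OKMS MEF replicate 1 or OKMS MEF replicate 2 (0.0888, 0.0845 and 0.127, within a range of 7.74e-05 to 0.127 over all settings).

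Genes related to the members by function were read against all genes tested, of which 15%, 11.7% and 15.7% rose and 12%, 10.1% and 13.5% fell (MKOS, OKMS E-CAD- and OKMS E-CAD+ 2NG- cells against MEFs). Of 16 tested genes of Lewis X and GDP-fucose synthesis, Fut9 included, 2 rose (Fut9 and B3gnt2) and 4 fell in MKOS 2NG- cells against MEFs, 1 rose and 1 fell in OKMS E-CAD- cells, and 1 rose and 2 fell in OKMS E-CAD+ cells, with list medians of -0.36, -0.15 and -0.16 on the log2 scale, where the median over all genes tested was 0 in each comparison. B4galt1, a galactosyltransferase acting before fucose is added, fell in all 3 (log2 fold change -2.53, -2.44 and -1.99). Of 34 tested tetraspanins and CD9 partners, 4 rose and 11 fell in MKOS (median -0.67), 0 and 11 in OKMS E-CAD- cells (median -0.46), and 3 and 14 in OKMS E-CAD+ cells (median -1.21). Cd81, a related tetraspanin, was among those that fell (log2 fold change -0.90, SE 0.34, adjusted p = 0.0425 in MKOS, and -1.50 and -1.65 in OKMS E-CAD- and E-CAD+ cells), so Cd9 and Cd81 moved in opposite directions in both E-CAD+ comparisons. Tspan1 rose from no read in either MEF group in MKOS and OKMS E-CAD+ cells, and Hbegf, a growth factor precursor that binds CD9, fell in all 3 (-3.75, -5.63 and -4.54).

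Of 27 tested genes of KIT signalling, 2, 2 and 3 rose (MKOS, OKMS E-CAD- and OKMS E-CAD+) and 5, 8 and 7 fell, with medians of -0.38, -1.17 and -0.74. Kit and the phosphoinositide kinase gene Pik3cb were the members of this list that rose in all 3, and Jak2 and the adaptor gene Shc1 were among those that fell in all 3. Of 27 tested genes of the synthesis of the lipid anchor that holds ALPL and CD24 in the membrane, 3, 1 and 3 rose and 1, 1 and 2 fell (medians 0.04, 0.06 and 0.48). Of 14 other surface genes of pluripotent cells, by contrast, 10, 10 and 11 rose and 3, 2 and 3 fell (medians 5.26, 2.64 and 5.25). The largest changes among them included Epcam, Cldn7 and Tdgf1. Of 16 fibroblast surface genes, 2, 1 and 1 rose and 9, 13 and 15 fell (medians -2.67, -3.13 and -4.14). The list of 14 holds Cdh1, the gene of the E-CAD sort. The 2NG- gate was also set on low CD44 and ICAM1, so counts in the surface lists are not free of the sort.

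Markers of other cells that carry members of this group were also read. Of the 7 blood cell markers tested, Csf1r, Tyrobp, Lyz2 and Cd68 were higher in MKOS 2NG- cells than in MKOS MEFs, and 0 were called in either OKMS comparison. Their summed level was 18.2 to 18.8 CPM in MKOS MEFs and 1627, 844 and 158 CPM in MKOS 2NG- replicates 1 to 3. It was 116 to 137 CPM in OKMS MEFs, 140 to 951 CPM in OKMS E-CAD- 2NG- cells and 133 to 305 CPM in OKMS E-CAD+ 2NG- cells, and at most 23.8 CPM in any iPSC or ESC library. The levels of all 6 members in MKOS 2NG- replicates 1 to 3 are given above in the same order. Pecam1 is a gene that blood and endothelial cells also carry. Ptprc, the defining marker of blood cells, was at most 2.83 CPM in any library, whereas Lyz2 was at 139 to 1467 CPM in MKOS 2NG- cells. The 6 mast cell markers summed to at most 3.52 CPM in any library and Cpa3 was at 0 in every library. Of the 10 endothelial markers, whose cells are the classical site of CD31, the sum was 10.8 to 51 CPM over the 48 libraries, Cdh5, the cadherin of endothelial cells, reached at most 1.36 CPM, and Tie1 and Vwf were higher in MKOS 2NG- cells than in MEFs. Tie1 was at 20.1 to 34.4 CPM in MKOS 2NG- libraries and at 0 in all MEF libraries. The 6 melanocyte markers, of cells that also use KIT, summed to at most 2.66 CPM in MKOS and 6.18 CPM in OKMS 2NG- cells, with Dct, Tyr and Tyrp1 at 0 and 0 of 4 called. Of 6 germ cell markers 1 (Piwil2) rose and 1 (Ddx4) fell in MKOS and OKMS E-CAD+ 2NG- cells, and Ddx4 fell in OKMS E-CAD- cells. Of 10 fibroblast markers 10, 8 and 9 fell, of 10 pluripotent cell markers 9, 7 and 9 rose, and of 9 tested epithelial and keratinocyte markers 6, 4 and 7 rose (MKOS, OKMS E-CAD- and OKMS E-CAD+). The part of these other cells in the members' results was not tested.

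Between OKMS cells sorted for and against E-cadherin, Cd9 and Pecam1 were the members called. Of the 6 members, 2 were called higher in E-CAD+ than in E-CAD- 2NG- cells, where 2.38% of all genes were called, and 1 in 3NG- cells, where 1.75% were. Cd9 was 3.41 times as high in E-CAD+ 2NG- cells (639 ± 265 against 187 ± 72.3 CPM, mean ± SD, n = 3 each), with no overlap between the libraries (log2 fold change 1.88, SE 0.32, adjusted p = 0.000328). The call held without each library in turn and under every other setting (adjusted p 4.8e-14 to 0.0393). In 3NG- cells Cd9 stood at 621, 482 and 264 CPM against 260, 240 and 137 CPM, and the highest E-CAD- library lay just under the lowest E-CAD+ library (log2 fold change 1.19, SE 0.32, adjusted p = 0.0376). This call was lost without OKMS E-CAD+ 3NG- replicate 1 or 2 (adjusted p = 0.201 and 0.0986) or OKMS E-CAD- 3NG- replicate 2 or 3 (0.0925 and 0.278), with DESeq2's size factors in edgeR (0.0501) and with these groups fitted alone (0.128), within a range of 7.05e-06 to 0.278.

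Pecam1 reads occurred in 5 of 6 OKMS E-CAD+ NG- libraries and in 0 of 6 E-CAD- libraries. The E-CAD+ 2NG- libraries held 14, 0 and 36 reads and the E-CAD+ 3NG- libraries 14, 1 and 6 reads. The means were at least 2.36-fold and 1.23-fold above the E-CAD- limit of 3 reads per library. Only the 2NG- difference was called (adjusted p = 0.0191, against 0.138 in 3NG- cells), and it was lost without E-CAD- 2NG- replicate 1, 2 or 3 (0.0822, 0.052 and 0.125) or E-CAD+ 2NG- replicate 3 (0.0578), within a range of 6.55e-05 to 0.125. With the 2 groups fitted alone, Pecam1 did not pass the filter on low counts and had no test. The size of the difference is given only as a lower bound.

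The other 4 members overlapped between E-CAD+ and E-CAD- libraries in both gates. In 2NG- cells the log2 fold change was 0.58 for Alpl (95% interval -0.26 to 1.42), 0.32 for Fut9 (-0.97 to 1.61), -0.12 for Kit (-1.07 to 0.83) and 0.16 for Cd24a (-0.58 to 0.90). In 3NG- cells it was 0.64 for Alpl (-0.21 to 1.48), -0.15 for Fut9 (-1.46 to 1.16), -0.16 for Kit (-1.12 to 0.79) and 0.47 for Cd24a (-0.27 to 1.21). A p that misses the threshold does not show equal levels. E-CAD- cells thus carried Alpl at 40.3 to 119 CPM, Fut9 at 7.08 to 21 CPM and Kit at 18.2 to 29.6 CPM, with medians of 61.9, 12.8 and 19.7 CPM over 6 libraries, against medians of 43, 10.3 and 13.5 CPM over the 8 ESC libraries. Their Cd9 level was 106 to 260 CPM, the range of the 6 MEF libraries being 160 to 251 CPM. The Alpl value of 119 CPM came from OKMS E-CAD- 2NG- replicate 2. That library also had the highest Cdh1 of the 6 E-CAD- libraries, 51.5 CPM, and the part of this in its Alpl level was not tested.

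**Figure D2:**
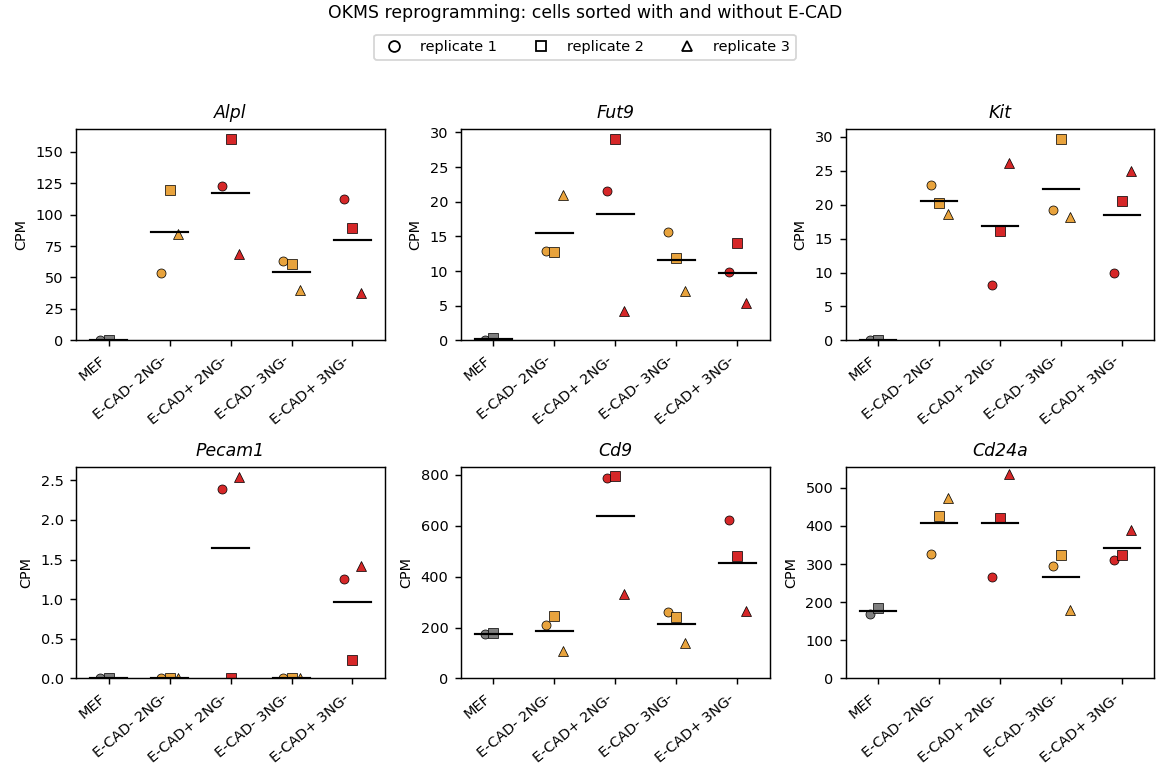
Level of each member in OKMS MEFs and in OKMS cells sorted with and without E-CAD, in CPM on linear axes from 0. Points are libraries, shaped by replicate number, and lines are group means. Cd9 in E-CAD+ libraries (264 to 796 CPM) lies above E-CAD- libraries of the same gate, Pecam1 is at 0 in all E-CAD- libraries, and Alpl, Fut9, Kit and Cd24a overlap.

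Among the lists, 7 of 14 other surface genes of pluripotent cells were higher and 0 lower in E-CAD+ than in E-CAD- 2NG- cells (median 1.67, where all genes had 0), led by Cldn6, Cldn4, Epcam and Cdh1, the gene of the sort itself. Of 34 tetraspanins and CD9 partners, Tspan1, Itga3 and Cd9 were higher and Tspan17 lower (median -0.34). No gene of Lewis X synthesis or of the lipid anchor was called, and of KIT signalling 1 (Jak2, lower) was. In 3NG- cells 7 of the 14 surface genes were higher, Cd9 was the only called gene of its list, and St3gal4 (lower) was the only called gene of Lewis X synthesis. Of 9 tested epithelial and keratinocyte markers, 5 were higher in each gate, with sums of 559 to 964 CPM in E-CAD+ 2NG- cells and 120 to 178 CPM in E-CAD- 2NG- cells. Pluripotent cell markers summed to 756 to 3274 CPM and 129 to 214 CPM, and 9 of 10 were higher. Blood cell markers reached 951 CPM in E-CAD- 2NG- cells and 305 CPM in E-CAD+ 2NG- cells, and 0 of 7 were called. The part of these differences in cell make-up in the Cd9 and Pecam1 results was not tested.

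From the 2NG- to the 3NG- gate, which is marked by the gain of ICAM1, Cd24a fell in MKOS cells and no member was called in OKMS cells. The shares of all genes called were 0.39% and 0.0384%. MKOS Cd24a went from 423, 497 and 489 CPM to 140, 150 and 178 CPM without overlap (log2 fold change -1.67, SE 0.37, adjusted p = 0.0242). Although the 2 groups were far apart, the call was lost in each of the 6 fits that left out 1 of the 6 libraries, MKOS 2NG- replicates 1 to 3 and MKOS 3NG- replicates 1 to 3 (adjusted p = 0.0629 to 0.119, log2 fold change -1.75 to -1.61, over all settings 9.78e-09 to 0.119). Epithelial and keratinocyte markers summed to 750 to 1241 CPM in MKOS 2NG- and 528 to 645 CPM in MKOS 3NG- libraries, with 0 of 9 called, and pluripotent cell markers to 2136 to 3554 and 7346 to 9690 CPM, with 1 of 10 called (Dppa5a, higher). Their part in the Cd24a result was not tested. OKMS E-CAD+ Cd24a stood at 311, 325 and 389 CPM in 3NG- cells, inside the range of the 2NG- libraries (-0.31, 95% interval -1.05 to 0.42). The MKOS interval was -2.43 to -0.92, so the 2 intervals overlapped. Whether the change at this step differed between the cassettes was not tested. In OKMS, edgeR called 0 members at this step, 0 had an unadjusted p under 0.05, and DESeq2 called 0. Among the lists, Tspan7 (lower) in MKOS and Icam1 (higher), which the sort selected on, in OKMS were the called genes of the surface lists.

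From 3NG- to 3NG+ cells, which differ in Nanog-GFP, Cd24a fell in both cassettes and Pecam1 rose in OKMS cells. Of all genes, 1.58% were called in MKOS and 6.26% in OKMS, and of the members 1 and 2. MKOS Cd24a fell to 38.1, 29.6 and 35.2 CPM in 3NG+ cells (log2 fold change -2.01, SE 0.38, adjusted p = 0.00264). OKMS Cd24a fell from 311, 325 and 389 CPM to 53.2, 39.2 and 77.3 CPM (-2.36, SE 0.39, adjusted p = 0.000108). Neither pair of groups overlapped, and both calls held without each library in turn (adjusted p at most 0.0344 and 0.00265). Over both steps, Cd24a in MKOS cells was thus 470 ± 40.4, 156 ± 19.2 and 34.3 ± 4.3 CPM (mean ± SD, n = 3). The E-CAD+ OKMS gates had 408 ± 135, 342 ± 41.7 and 56.5 ± 19.3 CPM in the same order. The difference between the cassettes in the step from 3NG- to 3NG+ was not called (0.35, 95% interval -0.71 to 1.41). That in the step from 2NG- to 3NG- was not tested.

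Pecam1 in OKMS cells went from 1.25, 0.238 and 1.41 CPM in E-CAD+ 3NG- cells to 13.4, 2.1 and 4.86 CPM in 3NG+ cells without overlap (log2 fold change 3.05, SE 0.82, adjusted p = 0.0204). The 2.1 CPM of 3NG+ replicate 2 equals the limit of 3 reads in that library, which had the fewest reads of all (1429717). The call was lost without E-CAD+ 3NG- replicate 1 or 2 (0.0778 and 0.124) or 3NG+ replicate 1 (0.184) and with these groups fitted alone (0.114), within a range of 0.000258 to 0.184. In MKOS cells Pecam1 went from 5.14, 3.62 and 10.5 CPM to 13.5, 22.1 and 15.1 CPM, also without overlap, with a log2 fold change of 1.58 (SE 0.71, adjusted p = 0.264). Over the 3 MKOS gates its mean was 2.03 ± 2.01, 6.42 ± 3.62 and 16.9 ± 4.6 CPM. Blood cell markers summed to 71.5, 732 and 41.9 CPM in OKMS 3NG+ replicates 1 to 3. The 10 endothelial markers summed to 23.2 to 36.8 CPM in MKOS and 27.3 to 34.3 CPM in OKMS 3NG+ libraries, against 28.7 to 36.0 and 37.7 to 51.0 CPM in E-CAD+ 3NG- libraries. Of these markers Cdh5 was at 0 in both 3NG+ groups, and Tie1 was at 3.95 to 10.3 CPM in MKOS and at 0 in OKMS 3NG+ cells. The part of these cells in the Pecam1 result was not tested.

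Cd9 fell in the same direction as Cd24a in MKOS cells, from 837, 823 and 1083 CPM in 3NG- cells to 420, 550 and 454 CPM in 3NG+ cells without overlap, but the difference was not called (log2 fold change -0.76, SE 0.31, adjusted p = 0.217). Alpl, Fut9 and Kit overlapped between 3NG- and 3NG+ cells in both cassettes, with log2 fold changes of 0.01 and 0.27 for Alpl, 0.72 and 0.68 for Fut9, and 0.15 and 0.42 for Kit (MKOS and OKMS). Alpl, Fut9 and Kit thus showed no called change at either later step.

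**Figure D3:**
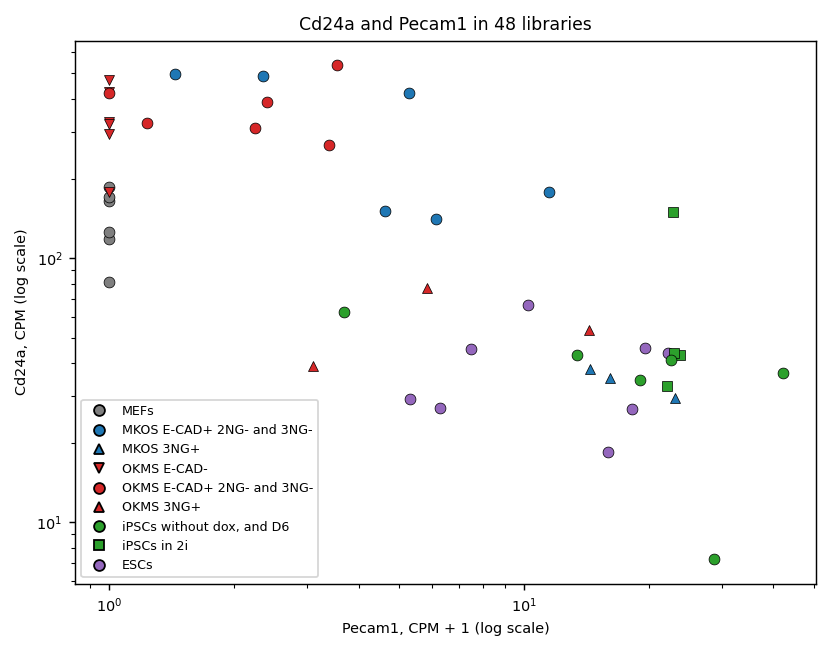
Cd24a (CPM, log axis) against Pecam1 (CPM after adding 1, log axis) in the 48 libraries, each point 1 library coloured and shaped by kind of cell. E-CAD- and MEF libraries lie at the left edge with 0 Pecam1 reads. The 3NG+ libraries, with Cd24a at 29.6 to 77.3 CPM, lie below all 2NG- and 3NG- libraries.

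Beside the fall of Cd24a in 3NG+ cells, 3 of 9 tested epithelial and keratinocyte markers fell in MKOS (Krt8, Krt18 and Krt19) and 6 of 9 in OKMS, with 0 higher in either. Their summed level was 528 to 645 CPM in MKOS 3NG- and 106 to 190 CPM in MKOS 3NG+ cells, and 484 to 844 and 64.8 to 187 CPM in OKMS. In E-CAD- 2NG- cells, where the sum was 120 to 178 CPM, Cd24a was at 328 to 473 CPM. Pluripotent cell markers were higher for 0 of 10 in MKOS and 7 of 10 in OKMS, and summed to 11442 to 13072 and 15321 to 16828 CPM in 3NG+ cells. Of the tetraspanin list, 1 rose and 1 fell in MKOS and 0 rose and 5 fell in OKMS (medians -0.86 and -0.88, all genes -0.04 and -0.06). Of the 7 tested PECAM1 partners and phosphatases, Pecam1, Cd38 and the inositol phosphatase gene Inpp5d rose in OKMS, and none was called in MKOS. The part of the epithelial markers' fall in the Cd24a result was not tested.

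**Figure D4:**
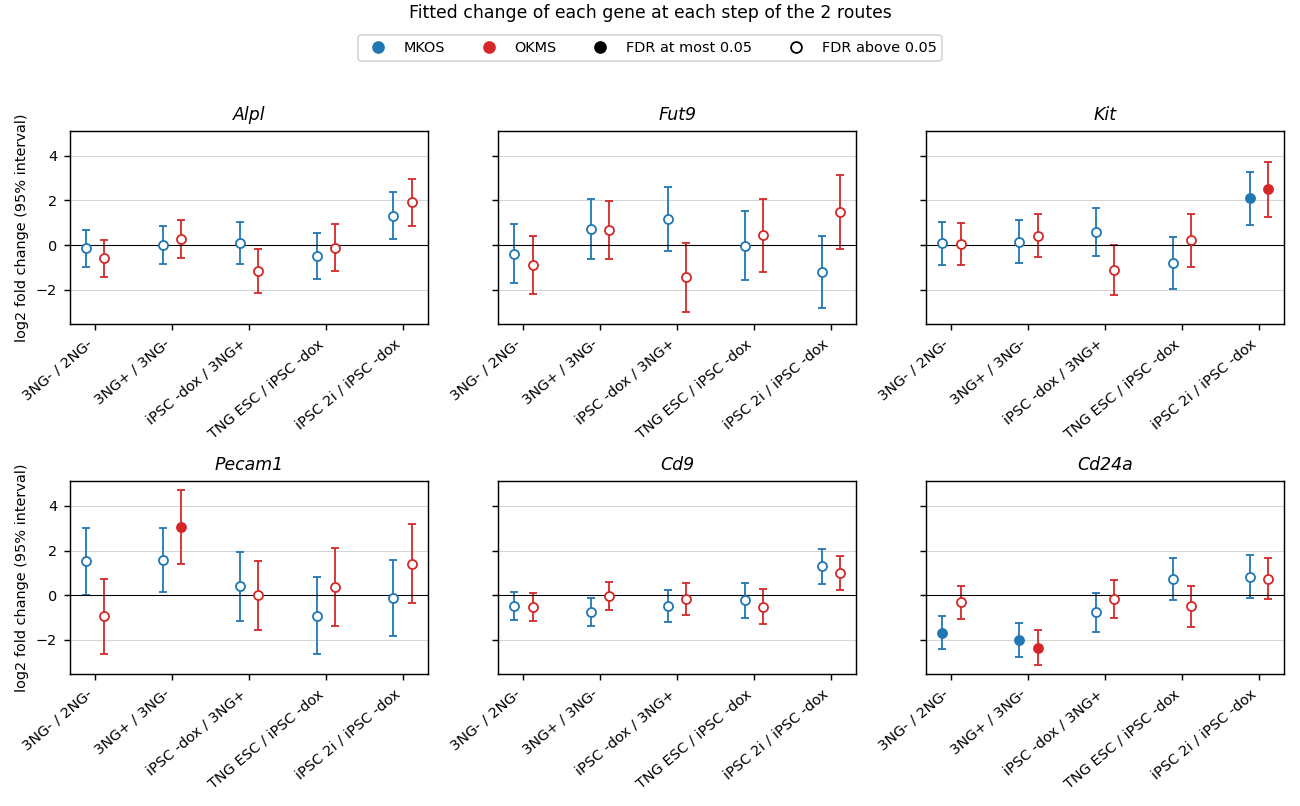
Log2 fold change of each member at 5 later steps, with 95% intervals, for MKOS (blue) and OKMS (red), where filled points have an adjusted p of at most 0.05. The filled points are Cd24a at 3NG- against 2NG- (MKOS, -1.67) and 3NG+ against 3NG- (-2.01 and -2.36), Pecam1 at 3NG+ against 3NG- (OKMS, 3.05) and Kit at 2i against -dox (2.10 and 2.50).

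No member was called between iPSCs without doxycycline and 3NG+ cells or between ESCs and these iPSCs, in either cassette. Between iPSCs without doxycycline and 3NG+ cells, edgeR called 0 of 6 members in MKOS (2.14% of all genes called) and 0 in OKMS (0.614%), DESeq2 called 0 in both, and 0 and 2 (Alpl and Kit, both lower in iPSCs) had an unadjusted p under 0.05. Alpl in OKMS was 86.5, 62.3 and 96.4 CPM in 3NG+ cells and 15.1 and 61.3 CPM in iPSCs (log2 fold change -1.17, 95% interval -2.15 to -0.19, adjusted p = 0.323). Between ESCs carrying the cassette and iPSCs of the same cassette, edgeR and DESeq2 each called 0 members, with 0.307% (MKOS) and 0.608% (OKMS) of all genes called by edgeR and 0 members with an unadjusted p under 0.05. The iPSC libraries were uneven. In MKOS iPSCs without doxycycline, replicate 1 had Alpl at 76.9, Fut9 at 26.6, Kit at 19.8 and Cd24a at 7.26 CPM, and replicate 2 had 24.3, 3.55, 5.32 and 34.4 CPM. Without replicate 2, Cd24a was called lower in MKOS iPSCs than in 3NG+ cells (log2 fold change -2.28, adjusted p = 0.0293).

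In 2i, which blocks MEK and GSK3, Kit was the called member in both cassettes, in comparisons that called 1.97% (MKOS) and 0.505% (OKMS) of all genes. Kit went from 19.8 and 5.32 CPM to 45.6 and 67.1 CPM in MKOS iPSCs (log2 fold change 2.10, SE 0.59, adjusted p = 0.0473) and from 10.1 and 10.2 CPM to 56.9 and 69.2 CPM in OKMS iPSCs (2.50, SE 0.60, adjusted p = 0.0375). The groups did not overlap. With 2 libraries a group the calls were fragile. The MKOS call was lost without MKOS 2i replicate 1 (adjusted p = 0.0754), 2i replicate 2 (0.215) or -dox replicate 2 (0.489) and with these groups fitted alone (0.0981), within a range of 0.00279 to 0.489. The OKMS call was lost without any 1 of its 4 libraries, OKMS -dox replicate 1 (0.309), -dox replicate 2 (0.136), 2i replicate 1 (0.101) or 2i replicate 2 (0.229), within a range of 0.00038 to 0.309. Kitl was at 0.432 CPM or less in MKOS and at 3.88 and 0.351 CPM in OKMS 2i libraries.

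Alpl and Cd9 did not overlap between 2i and -dox libraries in either cassette, nor did Fut9 and Pecam1 in OKMS, but edgeR called none. Mean Fut9 was 15.7 CPM in OKMS 2i and 5.07 CPM in OKMS -dox iPSCs, and mean Pecam1 22.0 and 7.57 CPM. In MKOS both overlapped. With 2 libraries a group, non-overlap is weak evidence, and its share over all genes was not counted. Alpl was at 157 and 108 CPM in MKOS and 127 and 187 CPM in OKMS 2i libraries, against 15.1 to 76.9 CPM in the 4 -dox libraries (log2 fold change 1.32 and 1.92, adjusted p = 0.211 and 0.0828). DESeq2 called Alpl in OKMS (adjusted p = 0.0221) and Cd9 in MKOS (0.0197). Cd9 was at 659 to 984 CPM in the 4 2i libraries and 228 to 460 CPM in the 4 -dox libraries. D6 iPSCs had Kit at 63.7 and 53.1 CPM, within the 45.6 to 69.2 CPM of the 4 2i libraries. Their Alpl level (89.9 and 102 CPM) was below the 2i libraries and their Cd9 level (1192 and 1255 CPM) above them, and these differences were not tested. No member was called for a difference between cassettes in the comparison of 2i with -dox iPSCs. Both edgeR and DESeq2 called 0 members, and edgeR called 0.0064% of all genes. Fut9 was the 1 member with an unadjusted p under 0.05 in edgeR. Fut9 stood at 10.2 and 3.74 CPM in MKOS and 16.4 and 15.1 CPM in OKMS 2i iPSCs.

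Between the ends of the route, 5 of 6 members were called in each cassette, in comparisons of ESCs with MEFs that called 33.3% (MKOS) and 34.4% (OKMS) of all genes. Alpl, Fut9, Kit and Pecam1 were higher in TNG MKOS and TNG OKMS ESCs and Cd24a was lower. Cd24a was at 27 and 43.8 CPM in TNG MKOS ESCs against 126 and 81.1 CPM in MKOS MEFs (log2 fold change -1.61, SE 0.46, adjusted p = 0.00621), and at 45.8 and 45.1 CPM in TNG OKMS ESCs against 170 and 186 CPM in OKMS MEFs (-2.01, SE 0.47, adjusted p = 0.000759). The MKOS call was lost without TNG MKOS ESC replicate 1 (0.0856) or MKOS MEF replicate 1 (0.113), within a range of 1.38e-06 to 0.113. The 2NG- libraries of each cassette had more Cd24a than any of its MEF or ESC libraries. Pecam1 was at least 27.3-fold and 27.8-fold higher in ESCs than in MEFs at their limit, and Kit at least 31.4-fold in OKMS. Cd9 was 329 and 265 CPM in TNG MKOS and 214 and 346 CPM in TNG OKMS ESCs. Both pairs lay above the MEFs of the same cassette without overlap, which is weak evidence with so few libraries a group. The difference was not called (log2 fold change 0.67 and 0.66, adjusted p = 0.181 and 0.18). The 6 MEF libraries, WT MEFs included, had 160 to 251 CPM of Cd9, a range that overlapped with TNG OKMS ESCs.

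Of the 34 tetraspanins and CD9 partners, 2 were higher and 13 lower in MKOS ESCs, and 0 and 17 in OKMS ESCs (medians -1.17 and -1.54, where all genes had 0). Of the 27 genes of KIT signalling, 3 were higher and 10 lower, and 2 and 9 (medians -0.27 and -1.27). Over all genes tested, 17.5% were higher and 15.7% lower in MKOS ESCs, and 18.3% and 16.2% in OKMS ESCs. Kitl was lower in ESCs (log2 fold change -3.65 and -4.42, adjusted p = 0.00454 and 0.00125). Of the 14 other surface genes of pluripotent cells 9 and 8 were higher and 1 lower in each cassette. Among alkaline phosphatases and genes of pyrophosphate metabolism, of which 4 of 7 were tested, Alpl was the only one higher, and Alppl2, the other phosphatase known from early embryos, reached at most 1.35 CPM and was at 0 in 42 of 48 libraries. Enpp1, which makes the pyrophosphate that ALPL removes, was lower in both.

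Set side by side at the same gate, no member was called between the cassettes, but several unadjusted p were small. Without the filter on low counts, 4 members were called in 2NG- cells, 3 in 3NG- cells and 3 in 3NG+ cells, in the directions given here. With a block for replicate number, Cd9 was called in 2NG- cells and Cd9, Cd24a and Pecam1 in 3NG- cells, in the same directions. The labels do not say whether these numbers pair the samples. The blood cell marker sum was lowest in replicate 3 in all 8 sorted groups, and its part in these comparisons was not tested. In MEFs 0.102% of all genes were called, and 0 members had an unadjusted p under 0.05 or were called by DESeq2. In 2NG- cells, where 5.07% of genes were called, edgeR and DESeq2 called 0 members and 4 had an unadjusted p under 0.05. Alpl, Fut9 and Kit were lower in MKOS (log2 fold change -1.17, -1.76 and -1.29, 95% intervals -2.01 to -0.32, -3.09 to -0.42 and -2.26 to -0.32, adjusted p = 0.105, 0.123 and 0.117) and Cd9 was higher (0.86, 0.22 to 1.49, adjusted p = 0.111). In 3NG- cells, where 2.17% were called, edgeR called 0 and DESeq2 called Cd24a (adjusted p = 0.0217), and 4 had an unadjusted p under 0.05. Cd24a was -1.26 (-2.01 to -0.51, adjusted p = 0.0625), Kit -1.26 (-2.23 to -0.29, 0.182), Cd9 0.89 (0.26 to 1.53, 0.139) and Pecam1 2.53 (0.89 to 4.18, 0.0995). The libraries of Cd24a at this gate did not overlap, 140 to 178 CPM in MKOS and 311 to 389 CPM in OKMS.

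In 3NG+ cells 0.685% of genes and 0 members were called by edgeR, 0 by DESeq2, and Alpl, Cd24a and Kit had an unadjusted p under 0.05, all lower in MKOS (log2 fold change -0.98, -0.91 and -1.54). In iPSCs without doxycycline 0.0192% of genes and 0 members were called, DESeq2 called 0 with 3 members left without an adjusted p, and Cd24a had an unadjusted p under 0.05 (-1.52, adjusted p = 0.364). It was called lower in MKOS without MKOS -dox replicate 2 (-3.03, adjusted p = 0.0192). Across the 9 sorted MKOS libraries Kit was at 5.26 to 12.3 CPM, and across the 15 sorted OKMS libraries at 8.18 to 29.6 CPM, so that the 2 sets overlapped in part. Tests of whether the change from MEFs to E-CAD+ 2NG- cells, or from 3NG- to 3NG+ cells, differed between cassettes called 0 members by edgeR and 0 by DESeq2, with 0 unadjusted p under 0.05 (1.35% and 0.0256% of all genes called). For Pecam1 the former could not be estimated because both MEF groups had no read. For Alpl, Fut9 and Kit the change from MEFs rested on at most 4 reads per gene in the MEFs of either cassette. The intervals of the difference between cassettes were wide, -5.54 to 1.25, -5.58 to 1.48 and -8.77 to 1.59 in log2. For these genes the test thus could not decide whether the change differed.

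Over all 20 groups, each member had its own order of levels. Alpl was highest in OKMS 2i iPSCs (157 ± 42.5 CPM, mean ± SD, n = 2) and lowest in OKMS MEFs, Fut9 highest in OKMS E-CAD+ 2NG- cells (18.3 ± 12.7 CPM, n = 3) and lowest in WT MEFs, and Kit highest in OKMS 2i iPSCs (63.1 ± 8.71 CPM, n = 2). Pecam1 was highest in D6 iPSCs (31.4 ± 13.7 CPM, n = 2) and Cd9 also there (1223 ± 44.9 CPM), closely followed by MKOS 2NG- cells (1217 ± 179 CPM, n = 3). Cd24a was highest in MKOS 2NG- cells and lowest in MKOS iPSCs without doxycycline (20.8 ± 19.2 CPM, n = 2). Most neighbours in these orders overlapped, 18 of 19 for Alpl, Fut9 and Pecam1, 17 of 19 for Cd9 and Cd24a and 15 of 19 for Kit. The separated neighbours of Alpl were TNG ESCs and WT MEFs, so each of the 17 groups above the MEFs overlapped with its neighbour. For Kit the 3 highest groups, OKMS 2i, D6 and MKOS 2i iPSCs, were separated from OKMS E-CAD- 3NG- cells below them. For Cd24a, TNG OKMS ESCs and D6 iPSCs and also MKOS 3NG+ cells and E14 ESCs did not overlap.

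The spread between replicates differed by member. The median coefficient of variation over groups with at least 30 reads was 15.6% for Cd9, 24.7% for Cd24a, 26.9% for Kit, 27.1% for Alpl, 37.4% for Fut9 and 53.7% for Pecam1. Fut9 and Pecam1, with 3103 and 3074 reads in all libraries together, were also the members with the fewest reads, and Cd9 had the most with 176002.

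Across the 20 group means, on a log2(CPM + 1) scale, Alpl, Fut9 and Kit were the most alike. Pearson's r was 0.93 for Alpl and Kit, 0.92 for Alpl and Fut9 and 0.84 for Fut9 and Kit. It was -0.79 for Cd24a and Pecam1, and between -0.18 and 0.59 for the other pairs. These values describe 20 points that share libraries, depth and the 3 MEF groups at or near 0. The 3 genes most like each member, by r over the same 20 groups, were Nup210, Slc2a3 and Bex4 for Alpl (0.97, 0.96 and 0.96), Iars, 1500001M20Rik and Nup210 for Fut9 (0.94, 0.93 and 0.93), Aqp3, Pfdn1 and Slc4a11 for Cd9 (0.90, 0.89 and 0.88), Ugt1a6b, Fabp5 and Vma21 for Cd24a (0.92, 0.91 and 0.91), Alpl, BC068281 and Zfp82 for Kit (0.93, 0.92 and 0.92) and 1700061G19Rik, Dnajc6 and Ooep for Pecam1 (0.97, 0.97 and 0.96). The gene most like Kit was Alpl with a pseudocount of 1 or 0.1, whereas with 5 it was 1700001P01Rik and Alpl was not among the 3 most alike.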

How the data were processed

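The deposited table holds read counts per transcript, repeat and spike-in for 48 STRT libraries. Per the labels, the authors counted 5′ end reads, and the submitters' processing notes name Bowtie 0.12.7 and mm10, whereas the study's methods name another mouse build. Reads with several positions were included. Positions in the table lay within 200 bases of the GRCm38 gene for 99.5% of 20607 shared symbols, so GRCm38 coordinates are given. Every column of samples matched a label.

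The counts were fitted as deposited with edgeR 4.0.16 (R 4.3.3), with TMM scaling, filterByExpr by group and 1 term per group over all 48 libraries, and tested by quasi-likelihood with Benjamini-Hochberg adjustment over all genes tested. TMM scaling and CPM differed by -0.20 to 0.28 in log2, and by over 0.1 in 11 of 25 comparisons. Alternatives were DESeq2 1.42.0, its size factors in edgeR, no filter, the groups compared fitted alone, a replicate block, and leaving out each library, where the dispersion trend of all libraries was kept and a lone library was assumed to vary like the other groups. Scripts were tested on simulated data. Pooled ratios have exact binomial intervals on 3 or fewer reads. No 2 of the 36 replicate pairs were identical. The members and gene lists were chosen with earlier results of these data known. Named list genes were at most 4 called genes of largest change in a list, plus Fut4, Kitl, Alppl2, Cd81, Cdh1, Epcam, Icam1 and Cd44. Genes named beyond these were chosen after their values were seen.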

Additional observations from a re-analysis of the deposited data

How the results depend on the processing

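Of 35 called member differences, 23 held in every fit that left out 1 library and 29 under every other alternative, and 0 changed direction. Without the filter on low counts, 4 members were called between cassettes in 2NG- cells, 3 in 3NG- cells, 3 in 3NG+ cells and 1 in iPSCs, 2 in E-CAD+ against E-CAD- 3NG- cells, 2 in MKOS 3NG+ against 3NG- cells, 1 in OKMS iPSCs against 3NG+ cells and 3 in each 2i comparison. The cause was not tested. With the groups compared fitted alone, the counts were 1 between cassettes in 2NG- and in 3NG- cells, 1 and 0 in the E-CAD comparisons of 2NG- and 3NG- cells, 2 and 1 in 3NG+ against 3NG- cells (MKOS and OKMS) and 0 in MKOS 2i. DESeq2 called 1 between cassettes in 3NG- cells and 2 in each 2i comparison, and its size factors in edgeR gave 0 in the E-CAD comparison of 3NG- cells. Leaving out 1 library gave 0 to 1 between cassettes in iPSCs, 1 to 2 in the E-CAD comparison of 2NG- cells and 0 to 1 in that of 3NG- cells, 0 to 0 in MKOS 3NG- against 2NG- cells, 1 to 2 in OKMS 3NG+ against 3NG- cells, and 0 to 1 in MKOS iPSCs against 3NG+ cells and in each 2i comparison.

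With the replicate block, 1 member was called between cassettes in 2NG- cells (Cd9, adjusted p = 0.0318), 3 in 3NG- cells (Cd9 0.0459, Cd24a 0.0309 and Pecam1 0.0492) and 2 in MKOS 2i (Cd9, 0.0314, and Kit). No other call changed with the block. The labels do not say whether the numbers pair the samples. Of 84 pairs of sorted libraries with the same number, 23 had correlated deviations over 0.1 (lowest -0.0414). The mean correlation was 0.081 for the same number and -0.040 for different numbers. Of 24 sorted libraries, 21 correlated best with their own number, a hint from the data and not the design.

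Over all genes, calls moved by over 1.5 times in 19 of 25 comparisons without the filter, 18 with DESeq2 and 4 with the block. For example, MKOS 3NG+ against 3NG- cells had 247 calls in edgeR, 425 with the block and 609 in DESeq2. The 3 genes most like a member were the same for 2 of 6 members with a pseudocount of 0.1 and for 0 of 6 with 5. Fut9 and Pecam1, with the fewest reads, are the members most limited by depth.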
